A study of Homo sapiens with 15 samples.

Results

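The genes described here are 29 genes of cholesterol synthesis and uptake, chosen by name from the 26475 genes of a count table made from A549 cells, a human line from a lung adenocarcinoma. They comprise 8 genes of the mevalonate steps, 12 genes of the sterol steps, 6 genes that control the pathway and 3 genes of uptake, transport and storage. The rule is a list of names and uses no measured value. All 29 passed the filter on low counts and were among the 12795 genes tested.

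RNA sequencing covered 15 libraries, 3 in each of 5 groups, with treatments of 48 h. One group received IL4 with siRNAs against ALOX15, pooled, at 1 uM. The others received IL4 with Compound A, IL4 with a control siRNA, also pooled, or IL4 alone, or were untreated. IL4 was at 10 ng/ml in every group that received it. IL4 is a cytokine of type 2 immunity, and ALOX15 is a lipoxygenase that oxidises polyunsaturated fatty acids. The nature and dose of Compound A, the dose of the control siRNA, and any vehicle or mock transfection are not given in the sources used here. Separate cultures are not stated for the replicates. The p-values therefore reflect the spread among these libraries, part of which may be technical. All cells were of 1 tumour line. In such bulk samples, fewer cells of a type and less RNA per cell cannot be told apart.

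Cells build cholesterol from acetyl-CoA by way of mevalonate, isoprenoids, squalene and lanosterol, and they also take it up from lipoproteins. The transcription factor SREBP2, encoded by SREBF2, raises the genes of both routes. SCAP escorts SREBP2 out of the endoplasmic reticulum when sterols are low, and the INSIG proteins retain the pair when sterols are plentiful. In the Golgi, proteases encoded by MBTPS1 and MBTPS2 cut SREBP2 and release the active factor. INSIG1 is itself a target of SREBP2. In the lung, cholesterol is a component of the surfactant that alveolar type II cells secrete.

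The promoters of 4 members are shown because, of all members, INSIG1 and MVK differed most in their responses to Compound A and to ALOX15 siRNA, NSDHL fell with Compound A against both IL4 control groups, while SREBF2 encodes the factor that drives the pathway. Each sequence is the 250 bases upstream of the RefSeq start in GRCh38.p14, on the plus strand, 5′ to 3′. INSIG1 lies at chr7:155297628-155297877, SREBF2 at chr22:41832855-41833104, NSDHL at chrX:152830813-152831062 and MVK at chr12:109573544-109573793. In GENCODE v29, whose genes can start further upstream, the annotated MVK gene starts at 109573255, so all of its printed bases lie inside that gene. INSIG1 starts there at 155297776, SREBF2 at 41833079 and NSDHL at 152830967, so the last of their printed bases also lie inside the genes. Capitals mark each match to an NF-Y box, CCAAT or its complement ATTGG, and in SREBF2 also the match to the sterol-element-like TCACNCCAC.
INSIG1: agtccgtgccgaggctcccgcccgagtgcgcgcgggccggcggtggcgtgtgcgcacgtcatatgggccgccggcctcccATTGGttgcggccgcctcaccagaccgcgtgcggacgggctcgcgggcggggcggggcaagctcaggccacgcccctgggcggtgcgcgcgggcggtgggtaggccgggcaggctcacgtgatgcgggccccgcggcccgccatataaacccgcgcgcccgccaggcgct
SREBF2: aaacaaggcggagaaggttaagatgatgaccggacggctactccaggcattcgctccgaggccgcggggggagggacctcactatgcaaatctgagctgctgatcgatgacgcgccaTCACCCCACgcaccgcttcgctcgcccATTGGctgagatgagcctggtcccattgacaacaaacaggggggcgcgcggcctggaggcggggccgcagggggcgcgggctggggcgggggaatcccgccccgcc
NSDHL: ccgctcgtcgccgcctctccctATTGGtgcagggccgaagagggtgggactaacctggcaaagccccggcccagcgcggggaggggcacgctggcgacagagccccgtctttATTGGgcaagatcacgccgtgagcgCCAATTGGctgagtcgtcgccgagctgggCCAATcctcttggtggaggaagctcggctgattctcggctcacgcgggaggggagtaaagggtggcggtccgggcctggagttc
MVK: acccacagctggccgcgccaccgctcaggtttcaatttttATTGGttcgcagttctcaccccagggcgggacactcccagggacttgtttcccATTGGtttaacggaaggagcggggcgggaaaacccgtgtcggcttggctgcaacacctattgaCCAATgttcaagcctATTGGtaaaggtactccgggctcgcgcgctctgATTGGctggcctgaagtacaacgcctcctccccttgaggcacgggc
MVK and NSDHL each held 5 NF-Y boxes, of which those of NSDHL at window bases 138 and 141 overlap, while INSIG1 and SREBF2 held 1 each. RefSeq entries, each of 300 bases from 250 before to 50 after the start, were matched for 25 of the 29 members. Entries were not matched for ACAT2, FDFT1, SQLE and SCARB1. An NF-Y box was present on either strand in 16 of the 25 (64%), against 35.7% of all 27305 promoters in the table. TCACNCCAC was present in 1 of the 25, SREBF2, against 1.15% of all promoters. A STAT6-type TTCNNNNGAA, a form bound by the factor that IL4 activates, was present in 1 of the 25, IDI1, against 6.37% of all promoters. The IDI1 window with this match, chr10:1056655-1056954, lies away from the GENCODE v29 start of IDI1, at 1049170 on the minus strand. Such a match is a string of letters and not a shown binding site. A site of another sequence, or outside the 300 bases, would be missed, so a promoter without a match is not shown to lack such an element.

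Summed counts per library ranged from 6407936 to 11031246. IL4 replicate 1 stood apart from the other libraries. Its score on the second principal component was 34.4, against -21.2 to 11.3 in the other 14, and its log2 CPM (counts scaled to a library size of 1e+06) increased by 0.289 for each 10 points of transcript GC content relative to the mean library, against -0.0993 to 0.0876 in the others. Members called with IL4 alone are also given without that library. Of 6 epithelial markers 5 were at 1 CPM or more in every library, whereas SFTPB, which encodes a surfactant protein, was at 0 in all 15, and only LAMP3 and ABCA3 of 8 alveolar type II markers reached 1 CPM throughout. PTPRC, CD3E, CLDN5 and COL1A2, which mark leukocytes, endothelium and fibroblasts, were at 0 in all 15. Of the same lists, CD68 was at 7.11 to 21.1 CPM, COL1A1 at 5.28 to 22.5 CPM and ACTA2 at 10.6 to 15.1 CPM, with no library at 0. ALOX15 itself was at 0.136, 0.314 and 0.258 CPM with ALOX15 siRNA against 3.90, 3.56 and 3.28 CPM with control siRNA, a log2 change of -3.85 (SE 0.43, adjusted p = 8.5e-05). It was at 2.59, 2.23 and 1.81 CPM with Compound A, at 6.00, 4.71 and 5.09 CPM with IL4 alone and 0, 0.110 and 0.299 CPM in untreated cells.

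Counting could blur some members. The deposited values of HSD17B7 were not whole numbers in any of the 15 libraries, so its reads were divided with other genes and its level is uncertain. By GENCODE v29, exons of 9 members share bases with another gene of the table, and for 6 of them only on the opposite strand. Whether counting used strand is not given in the sources used here, so ACAT2, MVK, IDI1, FDPS, GGPS1, CYP51A1, TM7SF2, MBTPS2 and STARD4 are also uncertain to that extent.

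**Figure D1:**
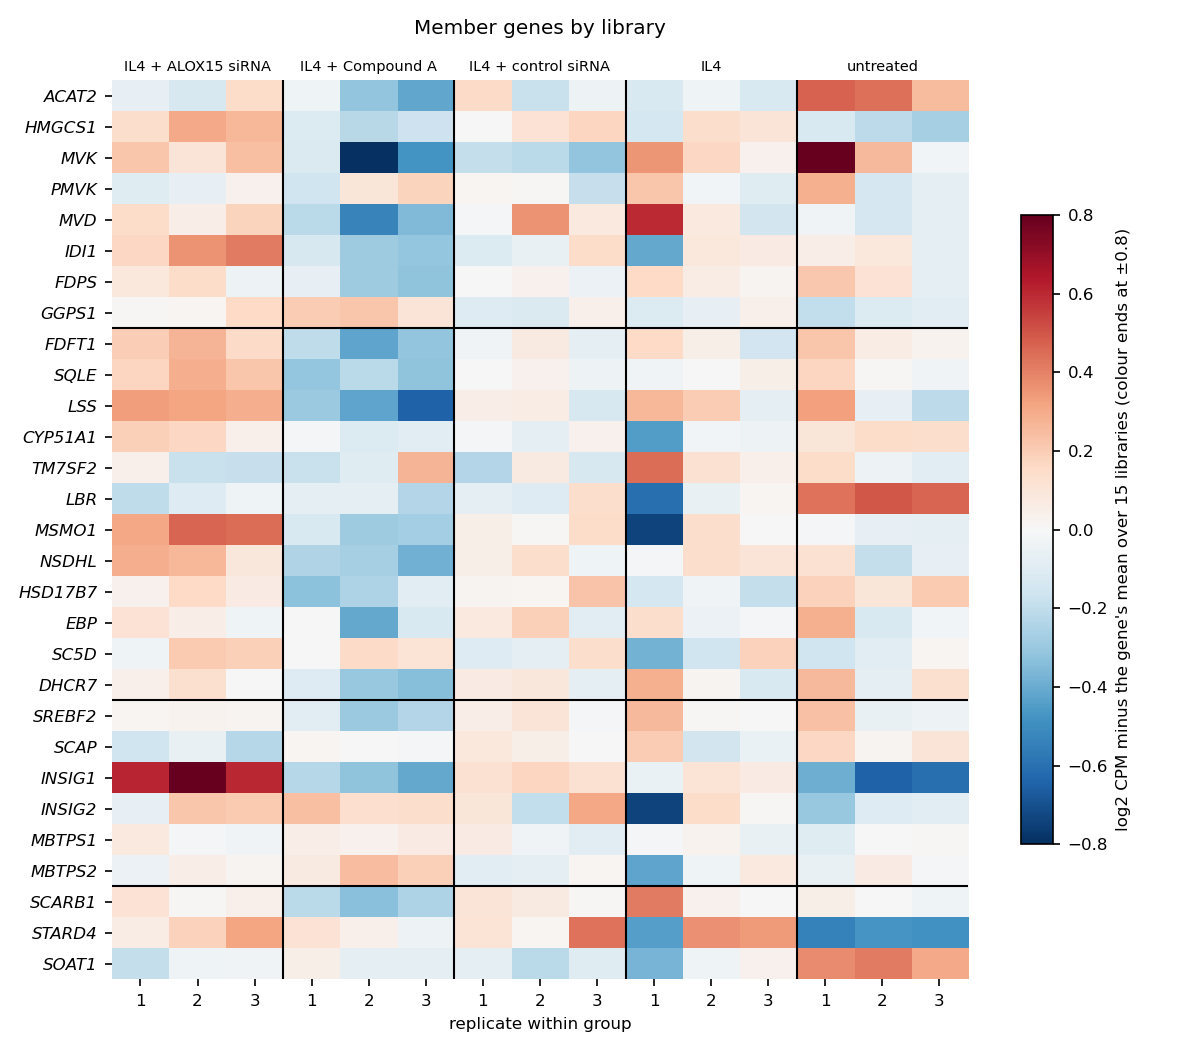
Level of each of the 29 genes (rows, in blocks of mevalonate steps, sterol steps, control, and transport) in each of the 15 libraries (columns, by group and replicate), as log2 CPM minus the gene's mean over the libraries. INSIG1 is high in the 3 ALOX15 siRNA libraries, many sterol genes are low with Compound A, LBR and SOAT1 are high in untreated cells, and IL4 replicate 1 departs from its 2 companions in several rows.

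IL4 alone changed members in both directions, at a share close to that of all genes. Against untreated cells, INSIG1, STARD4 and HMGCS1 rose while LBR, ACAT2, SOAT1, CYP51A1 and HSD17B7 fell, by 1.18-fold to 1.57-fold. That is 3 members higher and 5 lower of 29, beside 11.2% of all genes tested higher and 11.6% lower. Libraries of the groups did not overlap, with IL4 above, in 2 members and 15.5% of all genes, and with IL4 below in 5 members and 18% of all genes. The median log2 change was -0.02 over the members and -0.02 over all genes tested. Of the mevalonate genes 1 rose and 1 fell of 8, of the sterol genes 3 fell of 12, of the control genes 1 rose of 6, and of the transport genes 1 rose and 1 fell of 3.

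INSIG1, which retains SCAP in the endoplasmic reticulum and lies at chr7:155297776-155310235 on the plus strand, had 49.1, 55.0 and 53.2 CPM with IL4, against 38.7, 32.4 and 33.4 CPM in untreated cells. All 3 IL4 libraries were above all 3 untreated libraries, with a log2 change of 0.58 (95% interval 0.40 to 0.77, SE 0.09, adjusted p = 5.6e-05). STARD4, a cytosolic sterol carrier, had 93.5, 163 and 160 CPM with IL4, against 87.2, 91.1 and 90.6 CPM in untreated cells. IL4 replicate 1 lay just above the untreated libraries and the other IL4 libraries well above them (log2 change 0.64, SE 0.17, adjusted p = 0.017). HMGCS1, the synthase that makes HMG-CoA, had 199, 242 and 235 CPM with IL4, against 202, 190 and 182 CPM in untreated cells. Those groups overlapped, through IL4 replicate 1 and untreated replicate 1 (log2 change 0.23, SE 0.07, adjusted p = 0.024).

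Among the genes that fell, LBR, a sterol C14-reductase of the inner nuclear membrane, had 49.5, 72.1 and 76.2 CPM with IL4, against 102, 106 and 104 CPM in untreated cells (log2 change -0.66, SE 0.11, adjusted p = 0.00022). TM7SF2, whose product catalyses the same reduction, had 17.6, 14.0 and 13.2 CPM with IL4 and 14.2, 12.4 and 12.1 CPM in untreated cells and did not pass (log2 change 0.20, adjusted p = 0.35). SOAT1, which esterifies cholesterol for storage, had 66.1, 83.5 and 87.5 CPM with IL4, against 111, 114 and 105 CPM in untreated cells (log2 change -0.48, SE 0.08, adjusted p = 0.00027). For LBR and SOAT1 every IL4 library was below every untreated library. ACAT2, a thiolase that joins acetyl-CoA units, had 34.3, 36.4 and 34.3 CPM with IL4, against 51.8, 50.7 and 44.5 CPM in untreated cells (log2 change -0.49, SE 0.11, adjusted p = 0.0017). CYP51A1, the lanosterol demethylase, had 167, 224 and 221 CPM with IL4, against 243, 252 and 250 CPM in untreated cells (log2 change -0.28, SE 0.08, adjusted p = 0.015). HSD17B7, a ketosteroid reductase of the pathway, had 17.2, 18.6 and 16.6 CPM with IL4, against 21.6, 20.3 and 21.9 CPM in untreated cells (log2 change -0.28, SE 0.10, adjusted p = 0.049). In each of these 3 genes, too, the groups did not overlap.

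Without IL4 replicate 1, the log2 change was 0.63 for INSIG1, 0.85 for STARD4, 0.31 for HMGCS1, -0.49 for LBR, -0.37 for SOAT1 and -0.48 for ACAT2, and all 6 passed. INSIG1, LBR, SOAT1 and ACAT2 passed whichever library was left out. HSD17B7 passed in none of the 15 fits with a library left out, STARD4 did not pass without IL4 replicate 2 or 3 (adjusted p = 0.052 and 0.07), HMGCS1 without untreated replicate 3 or IL4 replicate 2 or 3 (0.065, 0.068 and 0.067), and CYP51A1 without untreated replicate 2 or 3 (0.079 and 0.064). The change of CYP51A1 without IL4 replicate 1 was -0.16 (adjusted p = 0.039). With untreated replicate 2 or 3 left out 3 members were lower, and with IL4 replicate 2 left out 1 was higher. Summed epithelial markers were at 8542 to 10528 CPM with IL4 and 5169 to 5851 CPM in untreated cells, and summed fibroblast and smooth muscle markers at 29.5 to 37.9 CPM with IL4 and 18.9 to 20.2 CPM in untreated cells. Summed alveolar type II markers were at 58.4 to 75.2 CPM with IL4 and 39.1 to 39.8 CPM in untreated cells, and leukocyte markers at 16.9 to 21.8 CPM with IL4 and 11.1 to 14.8 CPM in untreated cells. The part of these differences in the results was not tested.

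**Figure D2:**
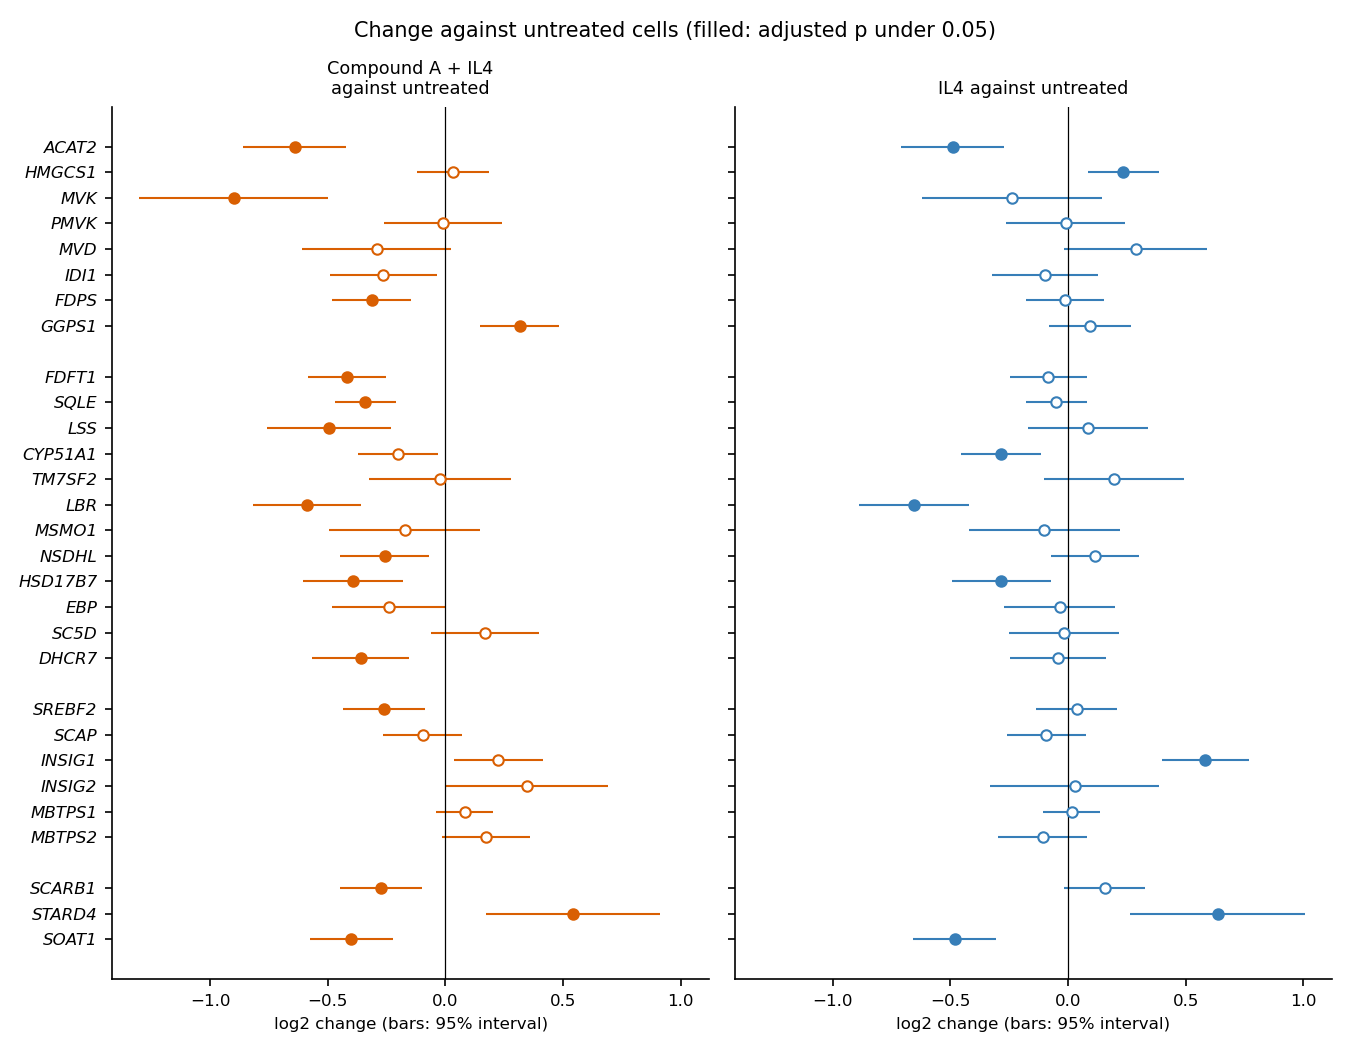
Log2 change (horizontal axis) of each gene against untreated cells, left for IL4 with Compound A and right for IL4 alone, with 95% intervals as bars and filled points where the adjusted p was under 0.05. LBR, ACAT2, HSD17B7 and SOAT1 lie left of 0 and STARD4 right of 0 in both panels, while INSIG1 passes with IL4 alone and the sterol genes FDFT1, SQLE, LSS, NSDHL and DHCR7 pass with Compound A.

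Compound A lowered a run of the genes in IL4-treated cells. Against IL4 alone, MVK, MVD, FDPS, FDFT1, SQLE, LSS, NSDHL, DHCR7, SREBF2, INSIG1 and SCARB1 fell, by 1.22-fold to 1.58-fold, and MBTPS2 rose. That is 11 members lower and 1 higher of 29, beside 8.07% of all genes tested lower and 6.35% higher. In a fit of these 2 groups alone, 1 member was lower, LSS, and 0 were higher, beside 267 genes lower of all tested, against 1033 in the fit of all groups. All Compound A libraries were below all IL4 libraries in 10 members and 15.7% of all genes, and above them in 2 members and 16.1% of all genes. The median log2 change was -0.17 over the members and 0.00 over all genes tested, and 21 of the 29 members had a negative change. By role, 3 of 8 mevalonate genes, 5 of 12 sterol genes, 2 of 6 control genes and 1 of 3 transport genes fell.

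The same Compound A libraries were also set against control siRNA, a comparison that differs by the siRNA as well. There HMGCS1, FDFT1, SQLE, NSDHL, INSIG1 and SCARB1 fell, which is 6 members of 29, beside 3.42% of all genes tested lower. A fit of these 2 groups alone gave 13 members lower and 1 higher, and a GC correction gave 12 lower. By role these were 1 mevalonate gene, 3 sterol genes, 1 control gene and 1 transport gene. None rose by edgeR's quasi-likelihood test or by DESeq2, beside 1.86% of all genes tested higher by edgeR. At an unadjusted p under 0.05 edgeR gave 2 members higher and 13 lower, beside 9.03% and 11% of all genes tested. The Compound A libraries were all below the control siRNA libraries in 14 members and 15.4% of all genes, and all above in 2 members and 15.1% of all genes. The median log2 change was -0.23 over the members and 0.00 over all genes tested. Both comparisons share the Compound A libraries.

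In the mevalonate steps, MVK, which phosphorylates mevalonate, had 11.2, 6.58 and 8.60 CPM with Compound A, against 15.5, 13.6 and 12.4 CPM with IL4 alone and 10.6, 10.4 and 9.69 CPM with control siRNA. The Compound A libraries lay below all IL4 libraries (log2 change -0.66, SE 0.20, adjusted p = 0.033) but overlapped the control siRNA libraries (log2 change -0.22, adjusted p = 0.6). MVD, the decarboxylase that makes isopentenyl diphosphate, had 19.6, 15.7 and 17.8 CPM with Compound A, against 34.6, 24.1 and 20.6 CPM with IL4 alone and 22.7, 29.4 and 24.1 CPM with control siRNA. It was lowest with Compound A in both comparisons, with log2 changes of -0.58 (SE 0.15, adjusted p = 0.015) and -0.52 (SE 0.15, adjusted p = 0.053). FDPS, which makes farnesyl diphosphate, had 96.7, 83.4 and 81.0 CPM with Compound A, against 113, 106 and 103 CPM with IL4 alone and 101, 104 and 97.9 CPM with control siRNA. All Compound A libraries were below the libraries of both other groups (log2 change against IL4 -0.30, SE 0.08, adjusted p = 0.018). HMGCS1 had 203, 188 and 195 CPM with Compound A, against 219, 237 and 247 CPM with control siRNA, without overlap (log2 change -0.26, SE 0.07, adjusted p = 0.04). Against IL4 alone its change was -0.20 (SE 0.07, adjusted p = 0.065).

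Other mevalonate genes did not pass in either comparison. ACAT2 and IDI1, the isomerase of isopentenyl diphosphate, had log2 changes of -0.15 and -0.17 against IL4 and -0.23 and -0.23 against control siRNA. PMVK, the kinase that follows MVK, changed by 0.00 against IL4 with a 95% interval of -0.26 to 0.26. GGPS1, which makes geranylgeranyl diphosphate and so leads away from sterols, had 40.2, 40.7 and 37.6 CPM with Compound A, against 32.3, 33.4 and 36.0 CPM with IL4 alone and 32.5, 32.2 and 35.9 CPM with control siRNA. Its Compound A libraries were the highest of the 3 groups, with log2 changes of 0.22 (adjusted p = 0.07) and 0.24 (adjusted p = 0.11).

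In the sterol steps, the genes for the first 3 enzymes after farnesyl diphosphate fell. FDFT1, squalene synthase, had 134, 115 and 124 CPM with Compound A, against 172, 159 and 139 CPM with IL4 alone and 151, 163 and 146 CPM with control siRNA. SQLE, squalene epoxidase, had 129, 137 and 128 CPM with Compound A, against 157, 160 and 165 CPM with IL4 alone and 160, 164 and 155 CPM with control siRNA. LSS, which closes the ring to lanosterol, had 27.6, 25.2 and 21.6 CPM with Compound A, against 40.9, 39.0 and 32.1 CPM with IL4 alone and 35.1, 35.3 and 31.1 CPM with control siRNA. For all 3 genes the Compound A libraries were below every library of both other groups. FDFT1 changed by -0.33 against IL4 (SE 0.08, adjusted p = 0.0086) and -0.30 against control siRNA (SE 0.08, adjusted p = 0.03). SQLE changed by -0.29 (SE 0.06, adjusted p = 0.0049) and -0.28 (SE 0.06, adjusted p = 0.012). LSS changed by -0.58 (SE 0.13, adjusted p = 0.0053) against IL4, while its change of -0.44 (SE 0.13, adjusted p = 0.055) against control siRNA did not pass.

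Further along, NSDHL, which helps to remove the C4 methyl groups, had 36.8, 36.3 and 33.4 CPM with Compound A, against 43.2, 48.1 and 46.8 CPM with IL4 alone and 45.0, 48.1 and 42.5 CPM with control siRNA. It did not overlap either group, with log2 changes of -0.37 (SE 0.09, adjusted p = 0.011) and -0.34 (SE 0.09, adjusted p = 0.034). DHCR7, a reductase of the final steps, had 81.7, 71.0 and 69.1 CPM with Compound A, against 107, 89.3 and 80.7 CPM with IL4 alone and 91.9, 93.6 and 83.4 CPM with control siRNA. Its highest Compound A library exceeded its lowest IL4 library (log2 change against IL4 -0.32, SE 0.10, adjusted p = 0.039, and against control siRNA -0.28, adjusted p = 0.13). MSMO1, the C4 methyl oxidase, had 102, 91.4 and 91.9 CPM with Compound A, against 66.5, 123 and 111 CPM with IL4 alone and 115, 112 and 123 CPM with control siRNA. The lowest of these was IL4 replicate 1, and neither change passed (log2 change -0.07, adjusted p = 0.78, and -0.29, adjusted p = 0.3). CYP51A1, TM7SF2, LBR, HSD17B7, EBP, an isomerase, and SC5D, a desaturase, did not pass in either comparison, with log2 changes of -0.22 to 0.19 against IL4 and -0.32 to 0.10 against control siRNA.

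Of the control genes, INSIG1 had 43.5, 40.6 and 38.3 CPM with Compound A, against 49.1, 55.0 and 53.2 CPM with IL4 alone and 55.4, 57.4 and 55.5 CPM with control siRNA. It was lowest with Compound A throughout, with log2 changes of -0.36 (SE 0.09, adjusted p = 0.011) and -0.46 (SE 0.09, adjusted p = 0.0044). SREBF2 had 141, 122 and 128 CPM with Compound A, against 180, 151 and 149 CPM with IL4 alone and 156, 161 and 149 CPM with control siRNA, again without overlap. Its log2 changes were -0.30 (SE 0.08, adjusted p = 0.022) and -0.26 (SE 0.08, adjusted p = 0.085). MBTPS2, the site-2 protease gene, had 147, 166 and 160 CPM with Compound A, against 104, 137 and 148 CPM with IL4 alone and 131, 133 and 142 CPM with control siRNA. Its rise against IL4 (log2 change 0.28, SE 0.09, adjusted p = 0.042) came with overlapping groups and the lowest value in IL4 replicate 1. SCAP, MBTPS1, the site-1 protease gene, and INSIG2, a paralogue of INSIG1, did not pass. MBTPS1 changed by 0.07 against IL4, with a 95% interval of -0.05 to 0.19.

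SCARB1, a receptor for high-density lipoprotein, had 135, 124 and 132 CPM with Compound A, against 210, 161 and 157 CPM with IL4 alone and 169, 165 and 158 CPM with control siRNA. Every Compound A library was below every library of both groups, with log2 changes of -0.43 (SE 0.08, adjusted p = 0.0025) and -0.33 (SE 0.08, adjusted p = 0.026). STARD4 and SOAT1, whose levels IL4 changed, had 123 to 137 and 81.2 to 88.4 CPM with Compound A, against 93.5 to 163 and 66.1 to 87.5 CPM with IL4 alone, and did not pass (log2 change -0.09 and 0.08). Of the 11 genes that fell against IL4, 8 had a RefSeq promoter entry, and all 8 held an NF-Y box. So did 8 of the 16 with an entry that did not pass, but not MBTPS2, which rose. Against control siRNA, all 3 with an entry that fell held a box, as did 13 of the 22 that did not pass. With IL4 against untreated cells, the 3 genes that rose all held a box. So did 2 of the 4 with an entry that fell and 11 of the 18 that did not pass. Whether the box bears on these changes was not tested.

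**Figure D3:**
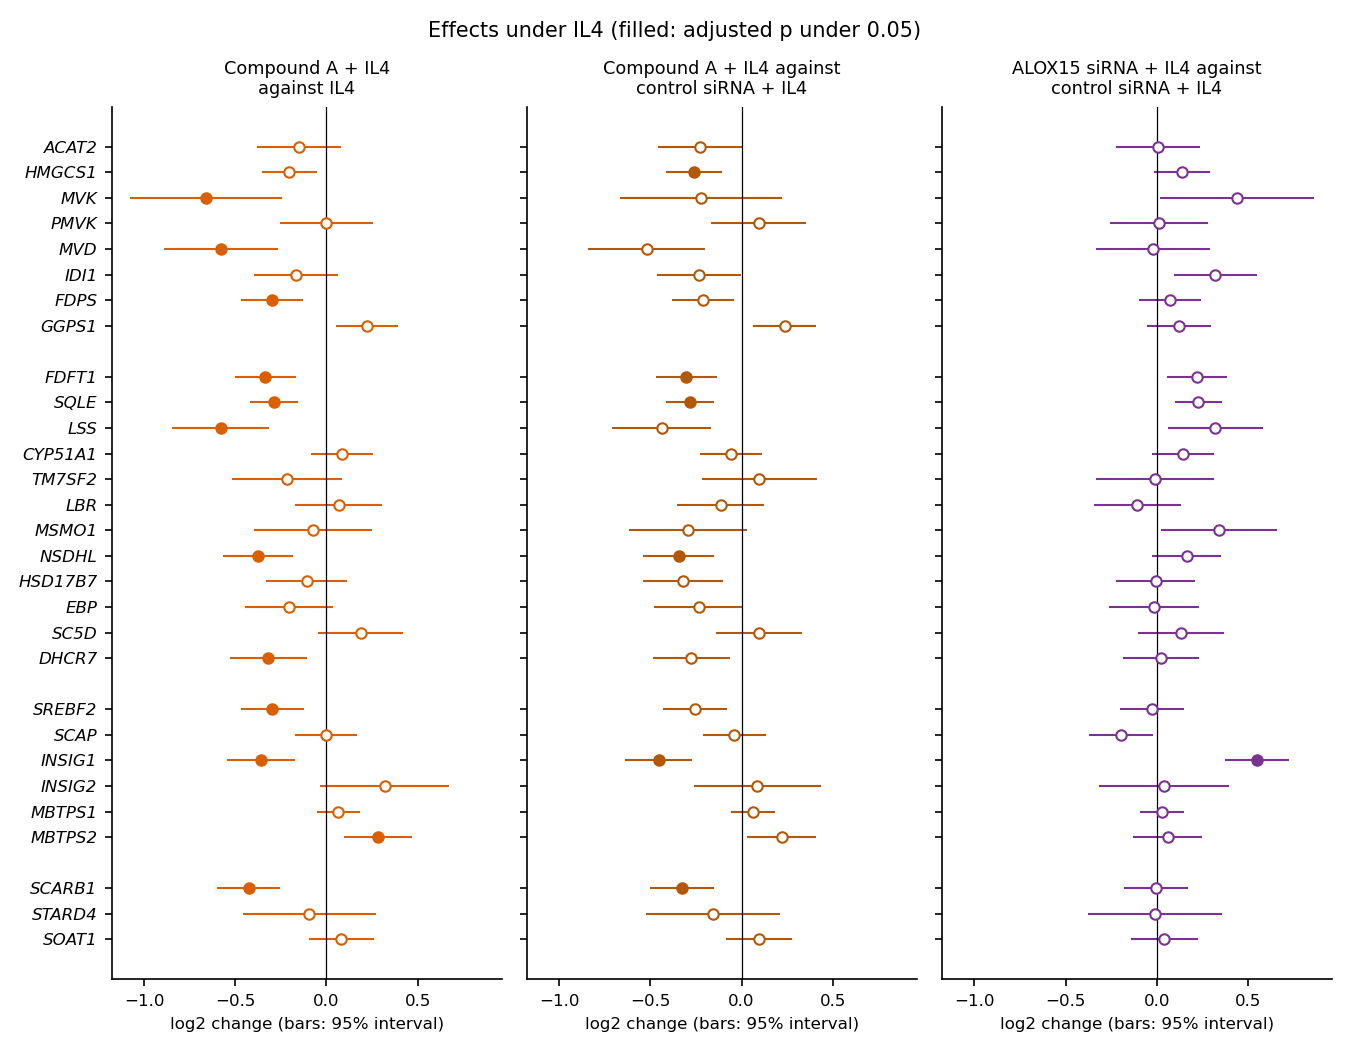
Log2 change of each gene in IL4-treated cells with Compound A against IL4 alone (left), Compound A against control siRNA (middle) and ALOX15 siRNA against control siRNA (right), with 95% intervals as bars and filled points where the adjusted p was under 0.05. FDFT1, SQLE, NSDHL, INSIG1 and SCARB1 are filled left of 0 in both Compound A panels, and INSIG1 is the filled point in the ALOX15 siRNA panel.

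SQLE, LSS and SCARB1 passed against IL4 whichever library was left out, the last with a change of -0.28 without IL4 replicate 1. Without IL4 replicate 1, MVK (adjusted p = 0.086), MVD (0.08), DHCR7 (0.15) and SREBF2 (0.066) did not pass, whereas HMGCS1 (log2 change -0.28, adjusted p = 0.0019), IDI1 (-0.31, 0.0091), MSMO1 (-0.29, 0.0045) and STARD4 (-0.31, 0.028) did. MVK did not pass without IL4 replicate 2 either (0.055). Without Compound A replicate 2, MVK (0.18), MVD (0.098), FDPS (0.095), FDFT1 (0.066), DHCR7 (0.14) and SREBF2 (0.12) did not pass, and without Compound A replicate 3 MVK (0.088), FDPS (0.09), DHCR7 (0.14), SREBF2 (0.078), NSDHL and INSIG1 (0.051) did not, so 5 members were lower without either of these. DHCR7 also missed the threshold without ALOX15 siRNA replicate 1 (0.052). MBTPS2 did not pass in 10 of the 15 fits with a library left out. Against control siRNA, INSIG1 passed in all of them. The count of members lower there was 14 without IL4 replicate 1, 3 without Compound A replicate 1, 2 without Compound A replicate 2, 1 without Compound A replicate 3, 3 without control siRNA replicate 1 and 1 without control siRNA replicate 2. Summed fibroblast and smooth muscle markers were at 20.2 to 25.1 CPM with Compound A, against 26.3 to 29.9 CPM with control siRNA and 29.5 to 37.9 CPM with IL4 alone. Summed epithelial markers were at 7334 to 8188 CPM with Compound A, against 8247 to 8897 CPM with control siRNA and 8542 to 10528 CPM with IL4 alone. Summed leukocyte markers were at 7.64 to 12.3 CPM with Compound A, against 12.3 to 15.8 CPM with control siRNA and 16.9 to 21.8 CPM with IL4 alone, although PTPRC and CD3E were at 0, and the part of all 3 in these results was not tested.

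Set against untreated cells, IL4 with Compound A had 13 of the members lower and 2 higher, beside 13.5% of all genes tested lower and 12.7% higher. Without overlap, Compound A was below in 17 members and 22.3% of all genes, and above in 5 members and 21.7% of all genes. The median log2 change was -0.26 over the members and 0.00 over all genes tested, and without untreated replicate 1 it was -0.14 over the members and 0.02 over all genes. Of the sterol genes 7 of 12 fell, of the mevalonate genes 3 of 8 fell and 1 rose, of the transport genes 2 of 3 fell and 1 rose, and of the control genes 1 of 6 fell. Some of these changes also passed with IL4 alone: LBR changed by -0.59 with Compound A and -0.66 with IL4, SOAT1 by -0.40 and -0.48, ACAT2 by -0.64 and -0.49, HSD17B7 by -0.39 and -0.28, and STARD4 by 0.54 and 0.64. Both comparisons share the untreated libraries.

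MVK had the greatest fall against untreated cells among the members, with 11.2, 6.58 and 8.60 CPM with Compound A, against 21.5, 14.5 and 11.9 CPM in untreated cells (log2 change -0.90, SE 0.19, adjusted p = 0.0014). Untreated replicate 1 was well above its companions, and without it the change was -0.59 (adjusted p = 0.024). LSS had 27.6, 25.2 and 21.6 CPM with Compound A, against 42.7, 32.4 and 29.3 CPM in untreated cells, without overlap (log2 change -0.50, SE 0.13, adjusted p = 0.0059). Without untreated replicate 1 its change was -0.29 and did not pass (adjusted p = 0.093). FDFT1 (-0.42), SQLE (-0.34), DHCR7 (-0.36), FDPS (-0.31), SCARB1 (-0.27), NSDHL (-0.26) and SREBF2 (-0.26) also fell. Without untreated replicate 1, NSDHL (-0.14, adjusted p = 0.31), SREBF2 (-0.14, adjusted p = 0.25), DHCR7 (-0.26, adjusted p = 0.1), SCARB1 (-0.23, adjusted p = 0.097) and FDPS (-0.23, adjusted p = 0.069) did not pass. NSDHL did not pass in 10 of the 15 fits with a library left out, STARD4 in 5, SREBF2 in 4, SCARB1 in 4, FDPS in 3, DHCR7 in 3 and LSS in 2. GGPS1 rose, with 40.2, 40.7 and 37.6 CPM with Compound A, against 30.4, 32.4 and 32.8 CPM in untreated cells (log2 change 0.32, SE 0.08, adjusted p = 0.0061). INSIG1 and HMGCS1, higher with IL4 alone, did not pass here, with log2 changes of 0.22 (95% interval 0.04 to 0.41, adjusted p = 0.074) and 0.03 (-0.12 to 0.18, adjusted p = 0.79). ACAT2, MVK, GGPS1, FDFT1, SQLE, LBR, HSD17B7 and SOAT1 passed whichever library was left out. The members lower numbered 7 without untreated replicate 1, 8 without Compound A replicate 2 and 7 without Compound A replicate 3. Those higher numbered 5 without IL4 replicate 1, and 1 when Compound A replicate 1 or 2 or untreated replicate 2 or 3 was left out. Summed epithelial markers were at 7334 to 8188 CPM with Compound A and 5169 to 5851 CPM in untreated cells, and alveolar type II markers at 53.2 to 62.4 CPM with Compound A and 39.1 to 39.8 CPM in untreated cells. Their part in these results was not tested.

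**Figure D4:**
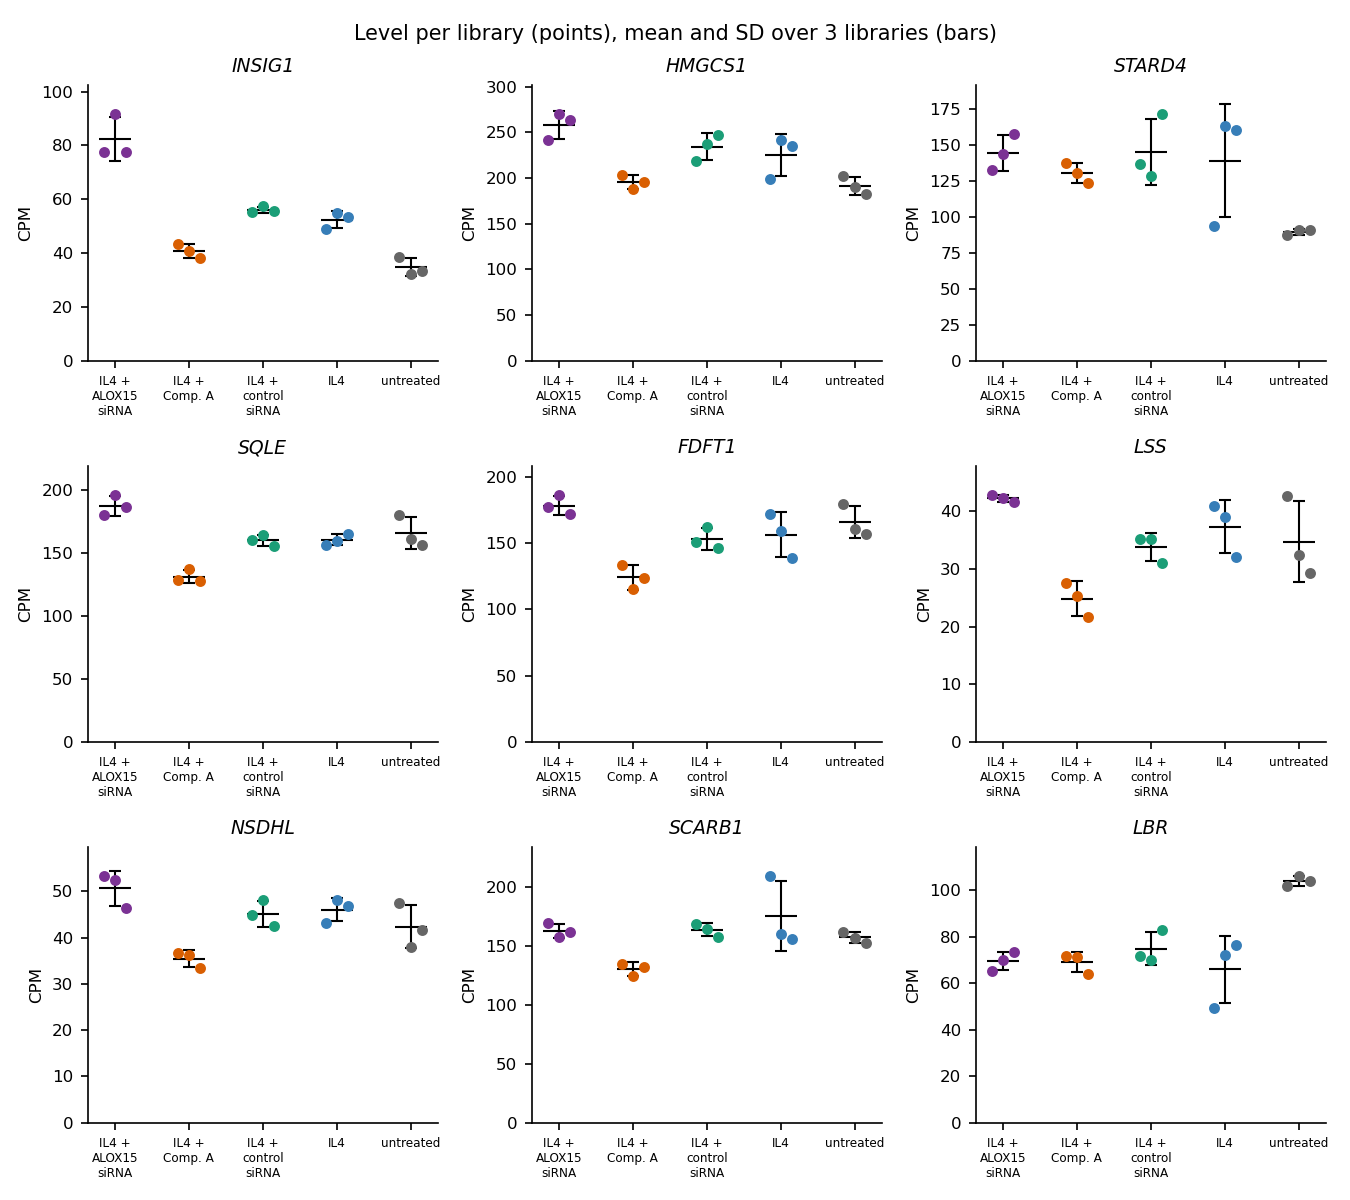
Level in CPM (vertical axis, from 0) of 9 of the genes in each library (points), with the mean and SD over 3 libraries, for ALOX15 siRNA, Compound A, control siRNA, IL4 alone and untreated cells from left to right. INSIG1 is highest with ALOX15 siRNA (77.5 to 91.6 CPM), SQLE and NSDHL are lowest with Compound A, and the low STARD4 and LBR and high SCARB1 points with IL4 alone are replicate 1.

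ALOX15 siRNA raised 1 member, INSIG1, against control siRNA. It had 77.7, 91.6 and 77.5 CPM with ALOX15 siRNA, against 55.4, 57.4 and 55.5 CPM with control siRNA. All 3 ALOX15 siRNA libraries were above every library of each other group, at 82.3 ± 8.13 CPM with ALOX15 siRNA and 56.1 ± 1.16 CPM with control siRNA (SD, n = 3 each). The 1.46-fold difference (log2 change 0.55, SE 0.08, adjusted p = 0.0024) passed whichever library was left out and under every other processing alternative. The count of 1 of 29 stands beside 0.313% of all genes tested higher and 0.383% lower. A fit of these 2 groups alone gave 6 members higher, adding IDI1, FDFT1, SQLE, LSS and MSMO1, and a GC correction gave 2. Summed alveolar type II markers were at 72.5 to 75.8 CPM with ALOX15 siRNA and 60.6 to 66.6 CPM with control siRNA, and their part in this result was not tested. No member fell by edgeR or DESeq2, and at an unadjusted p under 0.05 edgeR gave 7 members higher and 1 lower, beside 4.67% and 4.24% of all genes tested. ALOX15 siRNA libraries were all above control siRNA libraries in 8 members and 9.49% of all genes, and all below in 1 member and 9.18% of all genes. The median log2 change was 0.04 over the members and 0.00 over all genes tested.

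Several members had higher values with ALOX15 siRNA that did not pass. Of those given here, SQLE, LSS, FDFT1 and MVK fell with Compound A against IL4, while MSMO1 and IDI1 did not pass there. SQLE had 180, 196 and 186 CPM with ALOX15 siRNA, against 160, 164 and 155 CPM with control siRNA, without overlap (log2 change 0.23, SE 0.06, adjusted p = 0.12). LSS had 42.8, 42.4 and 41.6 CPM with ALOX15 siRNA, against 35.1, 35.3 and 31.1 CPM with control siRNA, also without overlap (log2 change 0.32, SE 0.13, adjusted p = 0.39). FDFT1 had 177, 186 and 172 CPM with ALOX15 siRNA, against 151, 163 and 146 CPM with control siRNA (log2 change 0.22, SE 0.08, adjusted p = 0.33). In these 3 genes the ALOX15 siRNA libraries were the higher group, but the adjusted p missed the threshold in the fit of all groups. All 3 genes passed when only the compared groups were fitted. MSMO1 had 138, 154 and 152 CPM with ALOX15 siRNA, against 115, 112 and 123 CPM with control siRNA (log2 change 0.34, SE 0.15, adjusted p = 0.51), and IDI1 had 103, 118 and 122 CPM against 84.9, 88.1 and 101 CPM (0.32, SE 0.11, adjusted p = 0.28). MVK had 14.1, 13.0 and 14.3 CPM with ALOX15 siRNA, against 10.6, 10.4 and 9.69 CPM with control siRNA (0.44, SE 0.20, adjusted p = 0.52). SCAP was lower with ALOX15 siRNA, without overlap, but did not pass. It had 53.2, 57.0 and 50.6 CPM, against 62.9, 61.3 and 59.6 CPM with control siRNA. SREBF2, SCARB1 and MBTPS1 changed little, with 95% intervals of -0.20 to 0.15, -0.18 to 0.17 and -0.09 to 0.15. With IL4 replicate 1 left out of the shared estimate of spread, 4 members were higher: INSIG1, SQLE (adjusted p = 0.019), IDI1 (0.0075) and MSMO1 (0.00065).

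The effect of Compound A against IL4 minus that of ALOX15 siRNA against control siRNA was then tested directly, with no library shared between them. In 7 members, INSIG1, LSS, MVK, FDFT1, NSDHL, SQLE and SCARB1, the difference was negative and passed, beside 3.2% of all genes tested. None passed in the positive direction by edgeR or DESeq2, beside 1.94% of all genes tested that passed as positive by edgeR. At an unadjusted p under 0.05 edgeR gave 0 members positive and 13 negative, beside 9.06% and 10.8% of all genes tested. The median difference was -0.21 log2 over the members and 0.00 over all genes tested. By role these were 4 of 12 sterol genes and 1 gene of each other class.

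The difference was -0.91 for INSIG1 (SE 0.12, adjusted p = 0.00016), -0.90 for LSS (SE 0.18, adjusted p = 0.0048), -0.55 for FDFT1 (SE 0.11, adjusted p = 0.0057) and -0.52 for SQLE (SE 0.09, adjusted p = 0.0014). For INSIG1 it joins a fall with Compound A to a rise with ALOX15 siRNA, both past the test. These 4 passed whichever library was left out. For MVK it was -1.10 (SE 0.28, adjusted p = 0.029), for NSDHL -0.54 (SE 0.13, adjusted p = 0.018) and for SCARB1 -0.42 (SE 0.12, adjusted p = 0.043), of which the last rests on Compound A, since SCARB1 changed by -0.01 with ALOX15 siRNA. The SCARB1 difference did not pass in 11 of the 15 fits with a library left out (adjusted p up to 0.13), and without IL4 replicate 1 it was -0.28 (adjusted p = 0.03). The MVK difference did not pass in 7 of them (up to 0.095), and MVK averaged 10.2 ± 0.453 CPM with control siRNA and 13.8 ± 1.59 CPM with IL4 alone (log2 change -0.44, adjusted p = 0.9), so part of it lies between the control groups. Without IL4 replicate 1, 10 members were lower. Without Compound A replicate 3, control siRNA replicate 3 or ALOX15 siRNA replicate 1, 4 members were lower. HMGCS1 (-0.34, adjusted p = 0.057), IDI1 (-0.49, adjusted p = 0.075) and FDPS (-0.37, adjusted p = 0.066) missed the threshold. Each effect is read against its own control group.

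**Figure D5:**
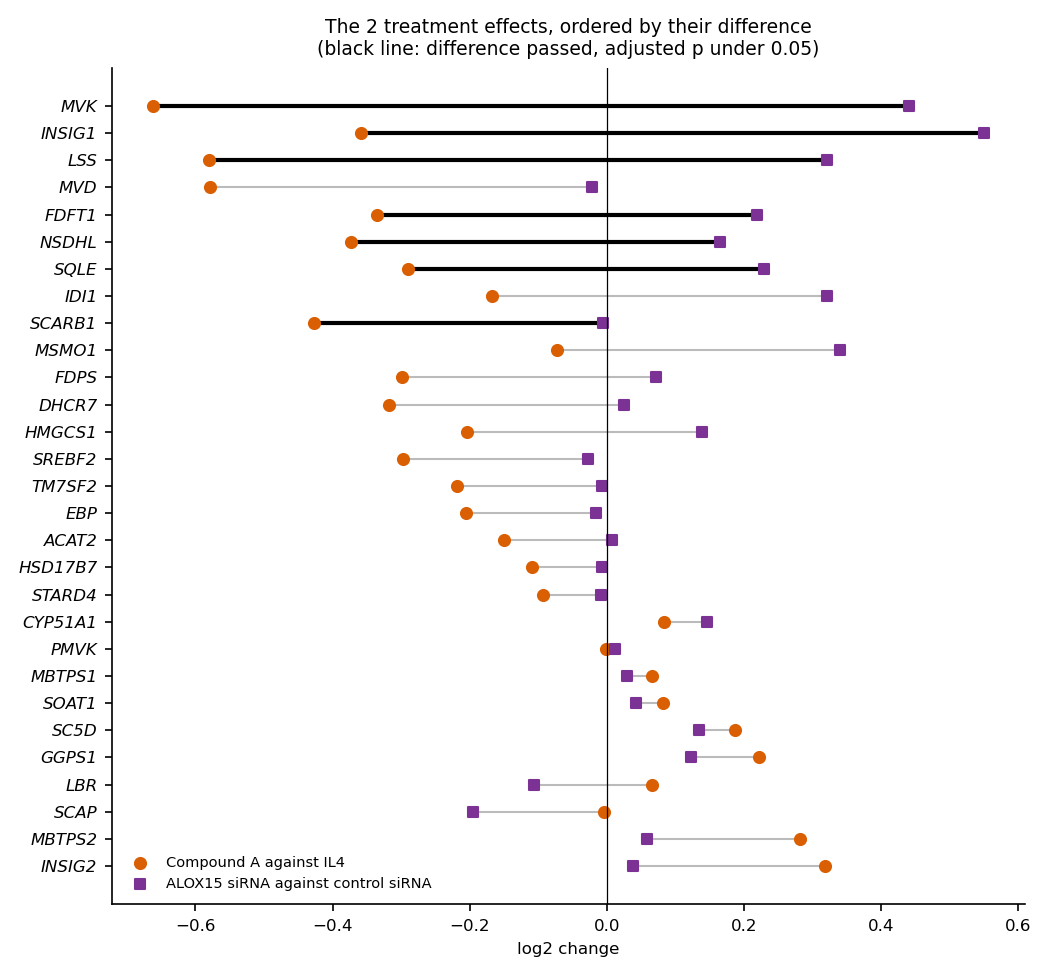
Log2 change of each gene with Compound A against IL4 (circles) and with ALOX15 siRNA against control siRNA (squares), joined by a line that is black where the difference of the 2 changes had an adjusted p under 0.05. From the top, genes run from the most negative to the most positive difference, and the 7 black lines belong to MVK, INSIG1, LSS, FDFT1, NSDHL, SQLE and SCARB1.

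Control siRNA against IL4 alone changed none of the members by edgeR or DESeq2. At an unadjusted p under 0.05 edgeR gave 0 members higher and 2 lower, beside 2.54% and 2.37% of all genes tested. Of all genes tested 0% were called by edgeR, with 628 at an unadjusted p under 0.05, and DESeq2 called 2. The groups did not overlap, control siRNA being above, in 2 members and 4.49% of all genes, and below in 1 member and 4.13% of all genes. INSIG1 had 55.4, 57.4 and 55.5 CPM with control siRNA, against 49.1, 55.0 and 53.2 CPM with IL4 alone (log2 change 0.10, adjusted p = 0.9). The median log2 change was 0.00 over the members and 0.00 over all genes tested.

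Counts over the 29 members summed to 2708, 2839 and 2766 CPM with ALOX15 siRNA, 2389, 2259 and 2260 CPM with Compound A, 2541, 2549 and 2600 CPM with control siRNA, 2393, 2605 and 2553 CPM with IL4 alone, and 2662, 2526 and 2484 CPM in untreated cells. The ALOX15 siRNA libraries held the 3 highest sums and the Compound A libraries the 3 lowest, given as a description of these libraries.

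Of 22 other genes of sterol synthesis and SREBP control, 20 were tested. IL4 alone lowered 5 of them and raised 0 against untreated cells, beside 11.6% and 11.2% of all genes tested. The genes lowered include NFYB (-0.34), a subunit of NF-Y, SIRT1 (-0.32), a deacetylase, and TMEM97 (-0.25), a sterol-responsive receptor. NFYB did not pass without untreated replicate 2 (0.11), untreated replicate 3 (0.086) or IL4 replicate 1 (0.12), nor TMEM97 without untreated replicate 2 (0.055). Compound A lowered 3 and raised 2 against IL4, beside 8.07% and 6.35% of all genes tested. SREBF1, the paralogue of SREBF2, had 94.5, 80.4 and 101 CPM with Compound A, against 190, 135 and 113 CPM with IL4 alone (log2 change -0.67, SE 0.16, adjusted p = 0.015), and did not pass without IL4 replicate 1 (-0.44, adjusted p = 0.056) or Compound A replicate 2 (0.073). FBXW7, part of a ubiquitin ligase that marks SREBP for degradation, had 19.7, 20.5 and 20.8 CPM with Compound A, against 11.9, 14.5 and 14.2 CPM with IL4 alone, and rose without overlap (log2 change 0.58, SE 0.12, adjusted p = 0.0026). SIRT1 rose too (log2 change 0.31, SE 0.07, adjusted p = 0.0061). It missed the threshold under the GC correction and when only the compared groups were fitted. Against control siRNA, Compound A lowered 1 gene of the list and raised 0, beside 3.42% and 1.86% of all genes tested. Against untreated cells, IL4 with Compound A lowered 2 of the 20, among them TMEM97 (-0.47), and raised 1, FBXW7 (0.39), beside 13.5% and 12.7% of all genes tested. ALOX15 siRNA changed 0 of the 20 against control siRNA, beside 0.383% of all genes tested lower and 0.313% higher. The difference of the Compound A and ALOX15 siRNA effects was positive and passed for 1 of the 20, SIRT1 (0.40, adjusted p = 0.023). It was negative and passed for 1 other, beside 1.94% of all genes tested positive and 3.2% negative. SIRT1 did not pass there in 4 of the 15 fits with a library left out (up to 0.072).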

How the data were processed

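The deposited table holds expected counts per gene for each library, estimated by the authors with RSEM 1.2.15 after alignment with Bowtie2 2.1.0, with hg38 as the build, per the submitters' processing notes. The gene annotation and strand setting are not given in the sources used here. Expected counts were rounded to whole numbers. Genes were filtered with filterByExpr, scaled by TMM and fitted with edgeR 4.0.16 in R 4.3.3, in 1 robust quasi-likelihood model of all 15 libraries. The Benjamini-Hochberg adjustment covered the 12795 genes tested, with 0.05 as threshold. CPM are TMM-scaled, and log2 CPM have a prior count of 2. SEs were derived from the log2 change and its F statistic. The commands were tested on simulated data. Alternatives were upper-quartile and RLE scaling, a filter of 1 CPM in 3 libraries, none at all, DESeq2 1.42.0, a model holding just the groups compared, the replicate number as a block, each library left out, and, chosen after seeing the data, a GC correction (loess span 0.3). Replicate numbers are not stated to pair samples. The members and lists were chosen with earlier results of these data known. Every member is reported, with library values for those that passed. Of each other list at most 4 genes that passed are named, those with the largest log2 changes. One gene that met this rule is not reported here. Promoters are from RefSeq, GRCh38.p14.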

Additional observations from a re-analysis of the deposited data

How the results depend on the processing

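Of the 49 calls of members, 19 passed under all 23 alternatives and 21 with each library left out, and none reversed in sign. Fitting only the compared groups gave 3 members lower for IL4 against untreated (5 as reported), 1 lower and 0 higher for Compound A against IL4 (11 and 1), 13 lower and 1 higher for Compound A against control siRNA (6 and 0), 4 higher for Compound A against untreated (2) and 6 higher for ALOX15 siRNA (1). In that fit SQLE and SCARB1 missed the threshold against IL4 (adjusted p = 0.054 and 0.064). The GC correction gave 0 higher for Compound A against IL4, 12 lower against control siRNA, 4 higher against untreated, 2 higher for ALOX15 siRNA, and 11 lower and 1 higher for the difference of effects (7 and 0 as reported). With no filter, 1 member was higher for Compound A against untreated. The cause was not tested. HSD17B7 in IL4 against untreated passed in 1 of the 23 alternatives, the replicate block.

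With each library left out, members higher ranged from 1 to 3 and lower from 3 to 4 for IL4 against untreated. For Compound A they ranged from 0 to 3 higher and 5 to 11 lower against IL4, 0 to 1 and 1 to 14 against control siRNA, and 1 to 5 and 7 to 17 against untreated. For ALOX15 siRNA 1 to 4 were higher and 0 lower, and for the difference of effects 0 were higher and 4 to 10 lower.

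Of 30 pairs of same-numbered libraries 8 had a correlation of deviations above 0.1 (range -0.13 to 0.29), against 7 of 60 pairs with different numbers, and 9 of 15 libraries correlated best with their own number, a hint from the data only. Since most same-numbered pairs were not above 0.1, the numbers were not taken to pair the samples. A replicate block gave 11 members lower for Compound A against control siRNA (6 without it), 12 against IL4 (11), 9 for the difference of effects (7), and the reported counts elsewhere.

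Counts over all genes also moved. Fitting the compared groups only gave 889 higher and 577 lower for IL4 against untreated (1435 and 1490 as reported), 130 and 267 for Compound A against IL4 (813 and 1033), 820 and 948 against control siRNA (238 and 437), and 172 and 153 for ALOX15 siRNA (40 and 49). The GC correction gave 468 and 721 for Compound A against control siRNA, 144 and 121 for ALOX15 siRNA, and 495 and 731 for the difference of effects (248 and 410). For ALOX15 siRNA, DESeq2 gave 62 higher and the replicate block 65, which gave 396 higher for the difference. Without IL4 replicate 1 the counts were 741 and 897 for Compound A against control siRNA and 148 and 124 for ALOX15 siRNA. No scaling moved the median of all genes by more than 0.1. Totals of 6407936 to 11031246 counts limit the precision of low members such as MVK.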

Other observations

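All 12 genes of the isoprenoid branch on the list were tested. IL4 alone lowered COQ2, a transferase of ubiquinone synthesis, against untreated cells (log2 change -0.46, adjusted p = 0.0025), which is 1 of 12 lower and 0 higher, beside 11.6% and 11.2% of all genes tested. Compound A raised RABGGTB, a subunit of the enzyme that adds geranylgeranyl groups to Rab proteins, against IL4 (log2 change 0.34, adjusted p = 0.03), which is 1 of 12 higher and 0 lower, beside 6.35% and 8.07% of all genes tested. RABGGTB did not pass without IL4 replicate 1 (0.11), Compound A replicate 2 (0.12) or Compound A replicate 3 (0.095). Against untreated cells, IL4 with Compound A lowered 2 of the 12, COQ2 (-0.38) and ICMT (-0.23), a methyltransferase of prenylated proteins, beside 13.5% of all genes tested. COQ2 did not pass there without Compound A replicate 2 (0.067), nor ICMT without untreated replicate 1 (0.067) or Compound A replicate 2 (0.083). Against control siRNA, Compound A and ALOX15 siRNA each changed 0 of the 12. Beside this, Compound A lowered 3.42% and raised 1.86% of all genes tested, and ALOX15 siRNA 0.383% and 0.313%.

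Of 24 genes of sterol transport, storage and efflux, 22 were tested. IL4 alone raised 5 and lowered 6 against untreated cells, beside 11.2% and 11.6% of all genes tested. Among these CAV1, which encodes the caveolar coat protein, rose (log2 change 0.55, adjusted p = 2.4e-05), while OSBPL9 (-0.38), a sterol-binding protein gene, and LRP1 (-0.32), an endocytic receptor gene, fell. LRP1 did not pass without untreated replicate 1 (0.06), untreated replicate 2 (0.065) or IL4 replicate 2 (0.068). Compound A raised 1, ABCA1, the cholesterol exporter, against IL4 (log2 change 0.33, SE 0.10, adjusted p = 0.033), and lowered 1, LRP8, a receptor of the low-density lipoprotein receptor family (log2 change -0.26, adjusted p = 0.008), beside 6.35% and 8.07% of all genes tested. The level of ABCA1 was 51.6 ± 3.03 CPM with Compound A, against 40.9 ± 6.33 CPM with IL4 alone (SD, n = 3 each). ABCA1 did not pass without IL4 replicate 1 (0.1), IL4 replicate 2 (0.091), Compound A replicate 2 (0.13) or Compound A replicate 3 (0.11). Against untreated cells, IL4 with Compound A raised 4 of the 22 and lowered 5, beside 12.7% and 13.5% of all genes tested. ABCA1 rose there by 0.63 (adjusted p = 8e-05), while LRP1 (-0.52), LRP8 (-0.43) and OSBPL9 (-0.37) fell. IL4 alone raised ABCA1 by 0.30 against untreated cells (adjusted p = 0.045), which did not pass in 4 of the 15 fits with a library left out. Against control siRNA, Compound A raised 0 of the 22 and lowered 1, LRP8 (log2 change -0.25, adjusted p = 0.023), beside 1.86% and 3.42% of all genes tested. LRP8 also passed in the difference of the Compound A and ALOX15 siRNA effects (-0.33, adjusted p = 0.03). LRP8 did not pass against IL4 without Compound A replicate 2 (0.06), nor against control siRNA without Compound A replicate 2 or 3 or any 1 of the control siRNA libraries (up to 0.15). In the difference of effects it did not pass in 8 of the 15 fits with a library left out (up to 0.1). ALOX15 siRNA changed 0 of the 22 against control siRNA, beside 0.383% of all genes tested lower and 0.313% higher.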
